A study of Mus musculus with 14 samples.

Results

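The genes described here are the translation initiation and elongation factors of the mouse embryo, with the enzymes that carry the same symbols. They were chosen by gene symbol alone: every gene named Eif1, Eif1a, Eif1ax or Eif1b, or beginning with Eif2 to Eif6, Eef1 or Eef2. This gave 71 of the 56923 genes of the count table, and all 71 were found by identifier in the GENCODE M39 annotation. RNA-seq was performed on 2-cell embryos, with 14 libraries in 7 groups of 2, and each library was made from 5 embryos pooled. The embryos came from superovulated ICR females crossed with ICR males. The early 2-cell stage was taken at 30 h after hCG and the late 2-cell stage at 54 h.

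The early G&N and late G&N embryos were cultured in mKSOM medium with 10 mM lactate, 5 μM Gne140, an inhibitor of lactate dehydrogenase, and 50 μM NMN, a precursor of NAD. The early G&N-L and late G&N-L embryos had the same Gne140 and NMN and no lactate, so the inhibitor is shared by the groups with and without lactate. Per the paper, lactate was removed from the late zygote on for both stages, so the late embryos had been without it for longer. The late G&N-L + Lac-CoA embryos were zygotes injected with 1 mM lactyl-CoA, the donor of the lactyl group, and then cultured as G&N-L. No injection is described for the G&N and G&N-L embryos. The late H3K18R embryos had been injected as zygotes with mRNAs of histone H3.1, H3.2 and H3.3 in which lysine 18 was changed to arginine, and the late WT embryos with wild-type H3 mRNAs. An injected mRNA adds to the H3 of the embryo and does not replace it. Neither lactate, Gne140 nor NMN is listed for these last groups. In the labels, the early libraries titled G+N-L carry the treatment given elsewhere to G&N, those titled G+N list Gne140 alone, the Lac-CoA libraries list CoA, and the count columns of the H3K18R libraries are named K18A. Groups were taken from the titles. The methods give 3 replicates per group and the counts hold 2, and nothing says whether those came from separate collections, so p-values measure only the spread between these libraries.

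Translation of most mRNAs starts when eIF4E binds the 5′ cap, and eIF4G and the helicase eIF4A bring in the small ribosomal subunit. That subunit already carries eIF3, eIF1, eIF1A, eIF5 and the eIF2 complex with GTP and the initiator tRNA. After the start codon is found, eIF5 promotes GTP hydrolysis, eIF5B joins the large subunit, and eIF2B reloads eIF2 with GTP. In elongation, eEF1A delivers aminoacyl-tRNA, the eEF1B subunits recharge eEF1A and eEF2 moves the ribosome. The oocyte stores mRNAs under translational control, and the mouse embryo starts most of its own transcription during the 2-cell stage, so mRNAs of both origins are present at this stage. In these pools, fewer cells of a type and less RNA per cell cannot be told apart, and levels are relative to all counts of a library.

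**Figure D1:**
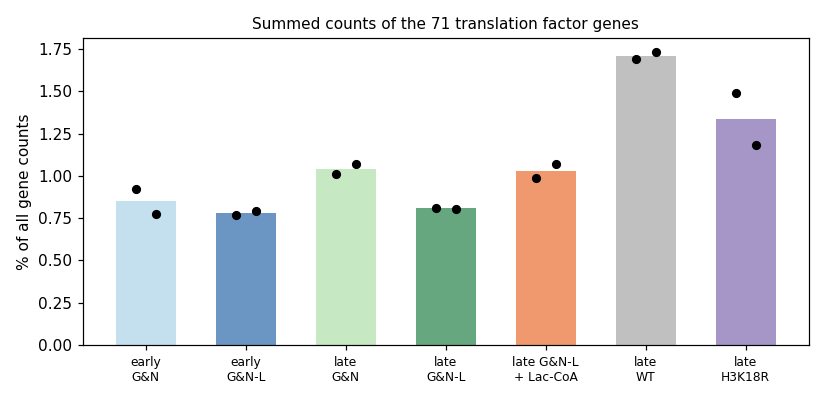
Counts of the 71 genes as a percentage of all gene counts of a library (vertical axis), for the 7 groups. Bars are means of 2 libraries and points are the libraries; the late G&N-L libraries lie at 0.813 and 0.804% and the late G&N libraries at 1.01 and 1.07%.

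Library totals ran from 20350427 to 61275465 counts, so that 0 counts allow up to 0.049 to 0.147 CPM (a gene's counts scaled to a common library size), which covers counting error only. The summed CPM of 14 markers of the 2-cell stage was 435 to 669 in the early libraries, 3020 and 3510 in late G&N-L, 2610 and 2490 in late G&N, 4270 and 4330 in Lac-CoA, 2280 and 2100 in H3K18R, and 2000 and 1760 in WT. The sums of both marker lists thus separated late G&N-L from late G&N with no overlap. The 2-cell sum also separated both from Lac-CoA. Abundant genes weigh most in these sums, and single markers did not all go the same way. Of the 2-cell markers, Zscan4d, Tcstv1, Tcstv3 and Zfp352 were higher in both late G&N-L libraries than in late G&N. Pramel6, Pramel7, Tdpoz1 and Tdpoz4 were lower in both. Of the maternal transcripts, Btg4 was higher (12100 and 12600 against 7810 and 8450 CPM), Oosp1 overlapped and Nlrp5 was lower. The part of these marker shifts in the results below was not tested. The summed level of 15 maternal transcripts was 21200 to 25600 CPM in the early libraries, 19100 and 21600 in late G&N-L, 15000 and 15400 in late G&N, 16500 and 11900 in Lac-CoA, 4200 and 4120 in WT, and 4450 and 9620 in H3K18R. H3K18R replicate 2 therefore stood apart from its replicate, and the fold changes of H3K18R are also given with either of its libraries left out. Markers of cumulus and granulosa cells summed to 2.5 to 34.2 CPM. In each library 7 to 13 of 15 were at 0, and Amh was at 0 in all 14. These marker sums are on library totals, without the TMM scaling between libraries that the member levels below carry. The TMM factors were 0.826 to 0.94 in early libraries and 0.98 to 1.14 in late ones, so the 2 scales differ between stages.

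The 71 genes together took 0.770 to 0.925% of the counts in the early libraries. In the late libraries they took 0.813 and 0.804% in G&N-L, 0.985 and 1.07% in Lac-CoA, 1.01 and 1.07% in G&N, 1.49 and 1.18% in H3K18R, and 1.69 and 1.73% in WT. Both G&N-L libraries lay below every other late library. Of the members, 68 were tested in at least 1 comparison. The others were Eef1a2, the eEF1A form of neurons and muscle, with 0 counts in all libraries, Eif4ebp3 with 1 count, and Eif2c5, a long non-coding RNA in the annotation, with 40 counts, all in WT replicate 1.

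Per kilobase of exon, Eif1, the factor that guards start codon choice, was the highest member in all 7 groups, from 375 ± 27.2 CPM per kb in early G&N-L to 598 ± 40.9 in late WT (SD, n = 2). Eif1b, its close relative, was next in both early groups and fell out of the first 4 places in every late group. Eif4e, the cap-binding protein, was second in late G&N, G&N-L, H3K18R and WT, and in the Lac-CoA group it came after Eif4a3l2 and Eif4a3l1. Eef2, the gene of the translocating elongation factor, ranked between 37 and 42 among the members in the 7 groups. The order depended on the length used. Per kilobase of the longest transcript, Eif2s2 was second in H3K18R and Eif5a in the Lac-CoA group, where Eif4e came before Eif4a3l1. Eef2 then ranked 47 in late G&N.

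The promoter stretches of 5 members are shown because the results below turn on these genes: Eif3c, a core eIF3 subunit that was low without lactate, Eif4ebp1, an inhibitor of eIF4E that was high in late embryos, Eif4e1b, the oocyte form of eIF4E, and Eif4a3l1 and Eif4a3l2, relatives of the helicase Eif4a3. Each is the 120 bases before the outermost annotated start of the gene, read 5′ to 3′ on the gene's strand from GRCm39 (the build mm39 of the counts). Capitals mark any match, on either strand, to GGGCGG (the GC box), to CCGGAA (the core of ETS factor sites), to CACGTG (the E-box), to CCAAT (the CCAAT box), to TATAAA (the TATA box) or to the palindromic site of the factor NRF1. No gene has an annotated exon in any of the 5 stretches.
Eif3c, chr7:126165599-126165718, minus strand: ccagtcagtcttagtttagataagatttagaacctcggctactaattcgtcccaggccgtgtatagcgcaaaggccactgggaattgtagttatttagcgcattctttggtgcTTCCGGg
Eif4ebp1, chr8:27750230-27750349, plus strand: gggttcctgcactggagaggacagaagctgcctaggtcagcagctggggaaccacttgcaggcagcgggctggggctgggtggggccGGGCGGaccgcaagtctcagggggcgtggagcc
Eif4e1b, chr13:54931691-54931810, plus strand: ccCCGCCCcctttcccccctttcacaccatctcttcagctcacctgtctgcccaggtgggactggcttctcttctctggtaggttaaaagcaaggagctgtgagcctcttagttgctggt
Eif4a3l1, chr6:136304417-136304536, plus strand: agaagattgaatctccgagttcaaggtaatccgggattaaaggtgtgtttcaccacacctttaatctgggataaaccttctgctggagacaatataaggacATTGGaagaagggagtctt
Eif4a3l2, chr6:116527982-116528101, plus strand: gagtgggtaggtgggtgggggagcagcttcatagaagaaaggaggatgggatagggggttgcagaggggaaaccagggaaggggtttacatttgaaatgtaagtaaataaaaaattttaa

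In the longer window of 250 bases before the canonical start, GGGCGG was found in 43 of 70 members (61.4%) and in 36.3% of 21770 protein-coding genes. CCGGAA was found in 17 members (24.3%) against 12.4%, CACGTG in 7 members against 6.26%, CCAAT in 21 members against 36.5%, TATAAA in 5 members (7.14%) against 11.9%, and the NRF1 palindrome in 1 member (1.43%) against 0.666%. The median GC content of the window was 57.2% in the members and 53.2% in all these genes. The 18 members that were low in late embryos without lactate, described next, had GGGCGG in 61.1% and CCGGAA in 22.2%. None of these shares was tested, and a match describes the letters only.

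The comparison of late G&N-L with late G&N asked what lactate changes while lactate dehydrogenase is inhibited. Without lactate, 18 members were called lower, among them 8 of 14 eIF3 genes, 3 of 4 of the eIF2 complex and Eif5. A gene is called here when its unadjusted p in edgeR's quasi-likelihood test was under 0.05 and its log2 fold change beyond 0.5 in either direction. Of 68 members tested, 18 were called lower and 1 higher (26.5 and 1.47%), where 7.63% of all 19481 genes tested were called lower and 4.23% higher. No member had an adjusted p under 0.05 in edgeR, as for all genes (0%), although 19 members had an unadjusted p under 0.05. DESeq2 gave 10 members (14.7%) and 4.7% of all genes at an adjusted p under 0.05. The median log2 fold change was -0.48 over the members tested and -0.02 over all genes. The 8 members that were also called lower under each of the 9 alternative settings and left-out libraries were Eif5, Eif3a, Eif3c, Eif3m, Eif4e2, Eif4a3, Eif2b4 and Eef1d.

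Eif5, whose product makes eIF2 hydrolyse GTP at the start codon, had 681 and 932 CPM in late G&N and 269 and 235 CPM in late G&N-L. These libraries did not overlap, and the log2 fold change was -1.62 ± 0.22 (SE, edgeR adjusted p = 0.311, DESeq2 adjusted p = 6.43e-08). Lac-CoA embryos lay between, at 428 and 454 CPM, and the WT libraries were highest at 2086 and 2279. The WT embryos were injected with H3 mRNAs and list no lactate, Gne140 or NMN, and these differences cannot be told apart. Mitochondrial genes took 10.6 and 11.2% of the counts in WT and 6.77 and 6.84% in late G&N.

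Of the 14 eIF3 genes, 8 were called lower (Eif3a, Eif3c, Eif3e, Eif3h, Eif3j1, Eif3j2, Eif3l and Eif3m), 1 was called higher (Eif3k), and their median log2 fold change was -0.95. Eif3a, the scaffold subunit, had 199 and 259 CPM with lactate and 94.6 and 79.5 without it. Eif3c, another core subunit, had 69.2 and 111 CPM with lactate and 33.4 and 22.6 without it. Eif3m had 23.3 and 49.6 CPM with lactate and 7.05 and 7.52 without it. None of these sets of libraries overlapped, and the log2 fold changes were -1.34 ± 0.23, -1.63 ± 0.35 and -2.26 ± 0.47 in that order. Eif3k had 59.5 and 72.5 CPM with lactate and 94.4 and 101 without it. Its call was lost without late G&N replicate 1 and without either G&N-L library, at 0.52 to 0.64. The calls of Eif3j1 and Eif3j2 were lost without any 1 library, those of Eif3e and Eif3l without 3 of the 4, and that of Eif3h without late G&N replicate 2 or late G&N-L replicate 2.

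The eIF2 complex carries the initiator tRNA, and 3 of its 4 genes were called lower, with a median log2 fold change of -0.86. Eif2s2, the beta subunit, had 644 and 795 CPM with lactate and 456 and 451 without it, a call lost without late G&N replicate 2 (-0.42) or either G&N-L library. Eif2s3x, the X-linked gamma subunit, had 19.8 and 60.2 CPM with lactate and 9.91 and 10.3 without it. Here 1 library set the size, since without late G&N replicate 2 the log2 fold change of Eif2s3x went from -1.92 to -0.89 and its call was lost. Eif2s3y, the Y-linked copy, had 52.3 and 42.3 CPM with lactate and 20.4 and 23.0 without it, a call lost without late G&N replicate 1 (-0.87) or late G&N-L replicate 1 (-1.02), and the number of male embryos in each pool is not given in the sources used here. Its ratio to Eif2s3x was 0.337 to 0.589 in the H3K18R and WT libraries and 0.703 to 2.64 in the other late libraries. Eif2s1, the alpha subunit that stress kinases phosphorylate, had 247 and 385 CPM with lactate and 231 and 161 without it and was not called. It was called without late G&N replicate 1 (log2 fold change -0.88) and without late G&N-L replicate 1 (-0.94).

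Eif2b4, a subunit of the exchange factor eIF2B, had 28.7 and 18.4 CPM with lactate and 4.99 and 5.33 without it, a log2 fold change of -2.15 ± 0.46. It was the called gene among 5 of eIF2B. Eif4e2, a second cap-binding protein that mostly represses translation, had 99.3 and 143 CPM with lactate and 41.4 and 45.6 without it (-1.42 ± 0.26). Eef1d, an exchange subunit of eEF1B, had 65.7 and 74.1 CPM with lactate and 28.4 in both libraries without it (-1.25 ± 0.25). Eif4a3, the helicase of the exon junction complex, had 89.3 and 121 CPM with lactate and 35.4 and 50.6 without it (-1.24 ± 0.29). The libraries with and without lactate did not overlap for these 4 genes. Eef1akmt4, a methyltransferase of eEF1A, had 10.6 and 19.1 CPM against 2.39 and 0.496 (-3.29 ± 0.92), a call lost without late G&N replicate 2. Eif6, which keeps the ribosomal subunits apart, was also called lower (-0.71 ± 0.24), but lost the call without any 1 of the 4 libraries.

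Among the factors around the cap, Eif4e had 1226 and 1710 CPM with lactate and 1013 and 1132 without it, a log2 fold change of -0.40 that was not called except without late G&N replicate 1. Eif1 had 1106 and 1313 CPM against 1055 and 1083 and was not called either. No gene among the 7 of eIF4A, eIF4G, eIF4B and eIF4H was called, and Eif4a1 had 77.0 and 97.6 CPM against 65.7 and 66.6, Eif4a2 131 and 196 against 136 and 102, Eif4g1 42.9 and 33.8 against 48.8 and 27.4, and Eif4g2 880.3 and 599 against 549.7 and 612. No gene of the eIF4E inhibitors, eIF5A, eEF1A or eEF2 was called, and Eef2 had 26.7 and 22.2 CPM with lactate and 10.1 and 20.4 without it. Eif4e1b was not called, with 27.4 and 18.1 CPM with lactate and 29.2 and 39.99 without it.

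Embryos injected with Lac-CoA and cultured without lactate were compared with late G&N-L, for which no injection is described. Injection and Lac-CoA therefore cannot be told apart here, or against late G&N below. Late G&N-L is also the group without lactate in the comparison above. The same 2 libraries thus enter both, and a low value in them raises one and lowers the other. Of 67 members, 16 were called higher and 2 lower (23.9 and 2.99%), against 6.89% of all genes called higher and 6.29% lower. In edgeR no member passed an adjusted p of 0.05 (0% of all genes), with 18 at an unadjusted p under 0.05. DESeq2 gave 11 members (16.4%) and 6.03% of all genes. The median log2 fold change was 0.34 for the members and -0.01 for all genes. Of the 16, the 7 that were called under all 9 alternatives were Eef1d, Eif2b4, Eif2s1, Eif3m, Eif4e2, Eif4ebp1 and Eif5.

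**Figure D2:**
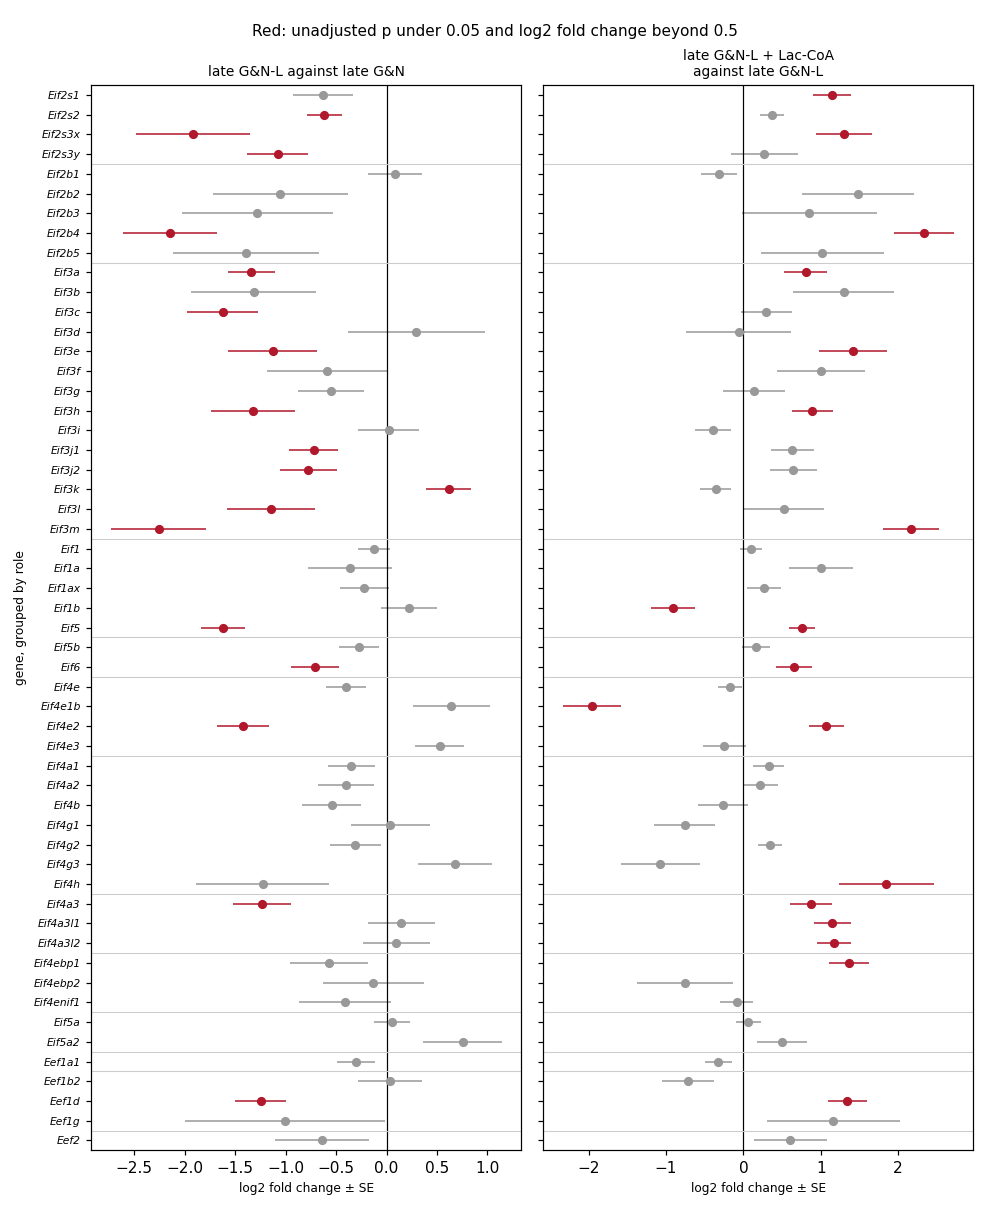
Fitted log2 fold change ± SE (horizontal axis) of each member named on the vertical axis and grouped by role, in late G&N-L against late G&N (left) and in late G&N-L + Lac-CoA against late G&N-L (right), with the kinases, methyltransferases, Eef1e1 and alternative initiator tRNA factors left out. Red points were called; most red points lie below 0 on the left and above 0 on the right, and the 2 panels share the G&N-L libraries.

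Eif3m had 37.3 and 30.1 CPM with Lac-CoA against 7.05 and 7.52 without it, a log2 fold change of 2.16 ± 0.37. Eif2b4 had 25.7 and 28.0 CPM against 4.99 and 5.33 (2.33 ± 0.39). Eif2s1 had 405 and 489 CPM with Lac-CoA against 231 and 161 (1.14 ± 0.25). For all 3, both Lac-CoA libraries lay above both G&N-L libraries. In eIF3, 4 of 14 were called higher (Eif3a, Eif3e, Eif3h and Eif3m), and in the eIF2 complex Eif2s1 and Eif2s3x. The calls of Eif3a and Eif2s3x were lost without Lac-CoA replicate 2 (0.46 and 1.22) or either G&N-L library, that of Eif3h without Lac-CoA replicate 1 (0.75) or G&N-L replicate 2, and that of Eif3e without Lac-CoA replicate 1 (1.28). Eif3c, called lower without lactate, was not called here, at 37.4 and 33.7 CPM against 33.4 and 22.6 (log2 fold change 0.29).

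Eif4a3 and its relatives Eif4a3l1 and Eif4a3l2 were all called higher with Lac-CoA. Eif4a3 had 76.4 and 86.4 CPM against 35.4 and 50.6, a call lost without Lac-CoA replicate 2 (0.80) or G&N-L replicate 1 (0.64). Eif4a3l1 had 229.7 and 294 CPM against 97.1 and 132, and Eif4a3l2 213 and 278 against 96.5 and 114. Eif4a3l1 and Eif4a3l2 share 23.5 and 27.5% of the 100-base windows of their transcripts, so reads may have been split between them. Their calls were lost with all 14 libraries in one fit, and without lactate their log2 fold changes were 0.15 and 0.10 and not called. Eif4ebp1, which blocks eIF4E when it is not phosphorylated, had 66.0 and 80.3 CPM with Lac-CoA against 25.2 and 29.8, and late G&N had 28.8 and 56.2.

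Eif4e1b was called lower with Lac-CoA, at 8.08 and 10.3 CPM against 29.2 and 39.99 in G&N-L, a log2 fold change of -1.96 ± 0.38 that was called under all alternatives. Eif1b was the other, at 67.1 and 43.8 CPM against 98.4 and 103, and lost the call without Lac-CoA replicate 2 (-0.62) and without either G&N-L library. Both are high in early embryos, and the maternal transcripts summed to 16500 and 11900 CPM with Lac-CoA against 19100 and 21600. Their part in the result was not tested.

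Against late G&N, the Lac-CoA embryos had few called members: 3 lower and 4 higher of 67 (4.48 and 5.97%), with 4.1% of all genes called lower and 4.41% higher. No member passed an adjusted p of 0.05 in edgeR (0% of all genes), and 7 had an unadjusted p under 0.05. DESeq2 gave 5 members (7.46%) and 2.4% of all genes. The median log2 fold change was -0.06 for the members, 0.06 for them without late G&N replicate 2, and 0.01 for all genes. Eif3c and Eif5 were lower than in late G&N (-1.24 ± 0.31 and -0.77 ± 0.22). Eif4a3l1 and Eif4a3l2 (1.39 ± 0.33 and 1.36 ± 0.35), Eif5a2, the other eIF5A gene (1.34 ± 0.35), and Eif1a (0.73 ± 0.23) were higher, and the first 3 of these held without each library and not with all 14 libraries in one fit. Eif4e1b was lower (-1.22 ± 0.46), a call lost without late G&N replicate 1 (-0.89) and without either Lac-CoA library. Eif3c lost its call without late G&N replicate 2 (-0.91), Eif5 without Lac-CoA replicate 1 (-0.74), and Eif1a without late G&N replicate 1 (0.62) or either Lac-CoA library. The log2 fold change of Eif3m was -0.01 ± 0.43.

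At the early 2-cell stage, lactate was compared in the same way, after a shorter time without it. Of 66 members, 2 were called lower without lactate and 2 higher (3.03% each), against 2.69 and 1.82% of all genes, and none passed an adjusted p of 0.05 in edgeR (0%) or DESeq2 (0.213% of all genes). The 4 called were also all those at an unadjusted p under 0.05. Eif2b4 had 8.57 and 9.88 CPM without lactate and 36.5 and 15.1 with it, and Eif5a, whose product helps ribosomes past proline-rich stretches, 405 and 346 against 779.7 and 487. Eef1e1, a scaffold protein of the tRNA synthetase complex, had 426 and 295 CPM without lactate and 279 and 227 with it. Eef1aknmt, a methyltransferase of eEF1A, was near its limit of detection, at 0.706 and 1.18 CPM without lactate and 0 in both libraries with it, at least 16.1-fold against a floor of 3 counts per library. The calls did not hold without single libraries. Without early G&N replicate 1 the called members were 2, without early G&N replicate 2 they were 8, and without either early G&N-L library they were 2.

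**Figure D3:**
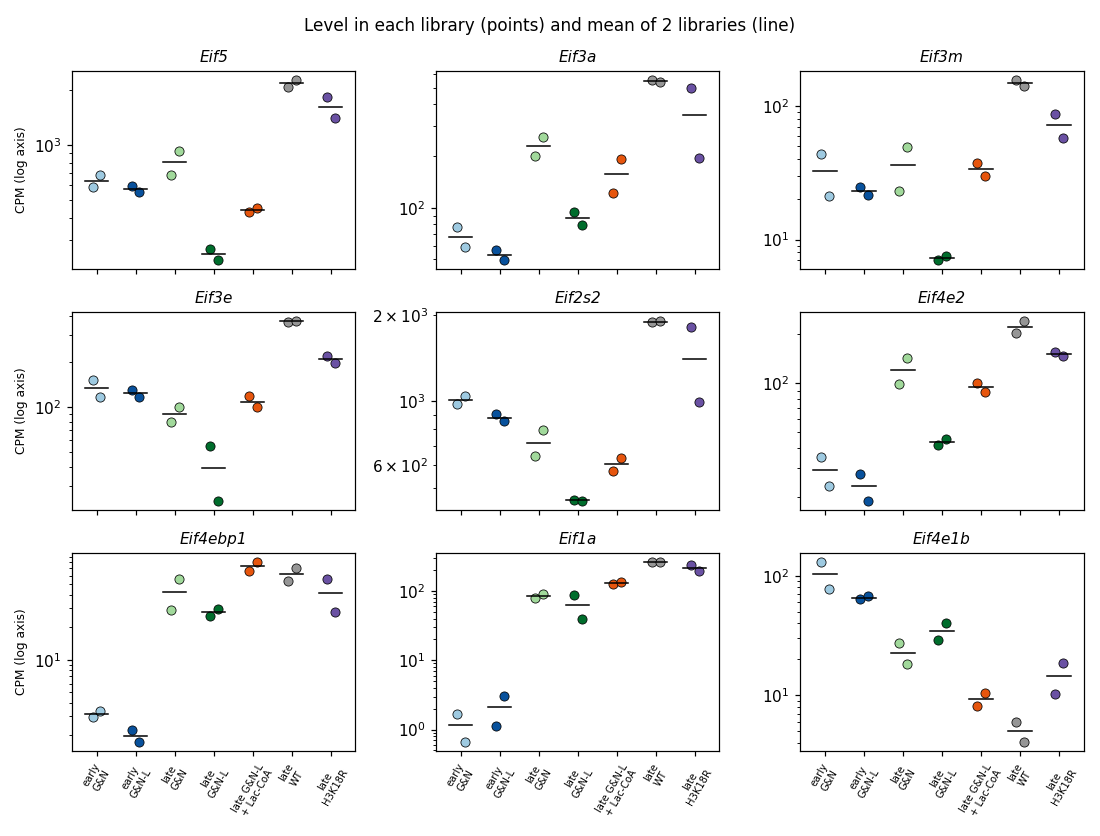
Level (CPM on TMM-normalized library sizes, log axis) of 9 members in each library (points) of the 7 groups on the horizontal axis, with the mean of 2 libraries as a line. Eif5, Eif3a, Eif3m, Eif3e, Eif2s2 and Eif4e2 are lowest among late groups in G&N-L, Eif4ebp1 and Eif1a are at 0.660 to 3.37 CPM in early embryos, and Eif4e1b is highest there.

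The interaction of lactate and stage tests whether the change without lactate differed between early and late embryos, fitted on 8 libraries. Late embryos had also been without lactate for longer, so stage and length of deprivation cannot be told apart. Of 68 members, 8 had a negative interaction and 2 a positive one at an unadjusted p under 0.05 (11.8 and 2.94%), against 3.98 and 3.57% of all 22287 genes. No gene passed an adjusted p of 0.05 in edgeR (0%), and DESeq2 gave 1 member, Eif5 (1.47%), and 1.04% of all genes. Eif5 had 599.6 and 549 CPM in early embryos without lactate and 589 and 687 with it, and its interaction was -1.55 ± 0.33. Eif3a, Eif3c, Eif3m, Eif4e2, Eif2s1, Eef1akmt4 and Eef1aknmt were the other negative ones, and Eif4e1b (1.20 ± 0.46) and Eif5a (0.71 ± 0.30) the positive ones. Of these 10, Eif5 alone was called in each of 13 alternatives and left-out libraries. Eif3a and Eif3c were called in 12 of them, Eif3m in 11, Eif4e2 and Eef1akmt4 in 9, Eif4e1b in 8, Eif2s1 in 7, Eef1aknmt, with 0 counts in early G&N, in 6, and Eif5a in 3. The number fell from 10 to 5 without late G&N replicate 2 and to 6 without late G&N-L replicate 2.

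H3K18R embryos were compared with WT embryos, both injected. Of 66 members, 4 were called lower and 1 higher (6.06 and 1.52%), against 2.67 and 3.77% of all genes, and no member passed an adjusted p of 0.05 in edgeR, where 1 gene of 17704 did (0.00565%), or in DESeq2 (0.667% of all genes). The median log2 fold change was -0.35 for the members, with -0.45 without H3K18R replicate 1 and -0.22 without H3K18R replicate 2, and 0.03 for all genes. Eif3g, a subunit that binds mRNA, had 72.3 and 64.7 CPM in H3K18R and 145 and 156 in WT. Eif3e had 218 and 196 CPM against 367 and 372, Eif3m 86.9 and 57.4 against 158 and 143, and Eif5b, the subunit joining factor, 259 and 181 against 414 and 472. The H3K18R libraries lay below the WT libraries for all 4, with log2 fold changes of -1.13 ± 0.27, -0.84 ± 0.25, -1.05 ± 0.32 and -1.01 ± 0.30. Without H3K18R replicate 2 these were -1.05, -0.76, -0.78 and -0.77. Without H3K18R replicate 1 they were -1.22, -0.92, -1.39 and -1.30. With 1 H3K18R library left, the spread rests on the WT pair alone, so only these sizes are given. Eif4e1b was higher, at 10.2 and 18.5 CPM against 5.92 and 4.04 (1.53 ± 0.60), with the higher value in replicate 2, the library with more maternal transcripts. Its log2 fold change was 1.89 without H3K18R replicate 1 and 1.03 without replicate 2, and its call held in 5 of 9 alternatives. The part of replicate 2 in these results was not tested.

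The number of calls moved when 1 library was left out, as given in the last section. Such a fit takes its spread from the other group alone, so its calls are not read here as an effect of H3K18R. Eif2s2 had 1817 and 997 CPM in H3K18R and 1884 and 1906 in WT, and Eif3a 498 and 195 against 556 and 537. Neither was called, at log2 fold changes of -0.42 and -0.65. These were -0.93 and -1.49 without H3K18R replicate 1, and -0.06 and -0.13 without H3K18R replicate 2. Eif5 had 1840 and 1401 CPM against 2086 and 2279, and its log2 fold change of -0.43 was not called. It was -0.64 without H3K18R replicate 1 and -0.24 without replicate 2.

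Between the early and the late 2-cell stage the calls passed an adjusted p under 0.05, which is the rule for these comparisons. With lactate, 11 of 68 members rose and 5 fell (16.2 and 7.35%), against 8.18% of all 19443 genes that rose and 5.47% that fell. Without lactate, 8 of 66 rose and 11 fell (12.1 and 16.7%), against 5.97 and 5.87% of all genes. The median log2 fold change over members tested was 0.46 with lactate and 0.11 without it, where those of all genes were 0.08 and 0.15. Single libraries mattered here too. Without either late G&N library, 3 members were called with lactate. Without late G&N-L replicate 1 or 2, 2 and 5 were called without lactate, and without early G&N-L replicate 2 there were 11.

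Eif1a, a gene for eIF1A, the factor that helps scanning, was near 0 in early embryos, at 1.67 and 0.660 CPM with lactate and 1.11 and 3.08 without it, and reached 78.4 and 91.1 in late embryos with lactate and 87.8 and 38.98 without it. Its log2 fold change was 6.14 ± 0.55 with lactate (edgeR adjusted p = 0.00658) and 4.87 ± 0.75 without it (edgeR adjusted p = 0.0214). The call without lactate was lost without either late G&N-L library, at 4.15 and 5.38. Its X-linked relative Eif1ax had 227 and 163 CPM in early G&N, 189 and 166 in early G&N-L, 99.1 and 129 in late G&N and 103 and 85.7 in late G&N-L. The ratio of counts of Eif1ax to Eif1a thus went from 53.8 to 246 in early libraries to 1.17 to 2.20 in late G&N and G&N-L, 0.814 and 0.971 with Lac-CoA, and 0.558 to 0.865 in the injected H3 groups. These transcripts share no window of 100 bases (0%).

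Eif4a3l1 and Eif4a3l2 had at most 5.39 CPM in early libraries and between 75.0 and 132 CPM in late G&N and G&N-L. Both rose with lactate, where their log2 fold changes were 5.82 ± 0.43 and 5.42 ± 0.45 (edgeR adjusted p = 0.00599 and 0.00617). Without lactate they did not pass in edgeR, at 5.32 ± 1.44 and 5.75 ± 1.34, and passed in DESeq2 (adjusted p = 0.0353 and 0.0132), with early G&N-L libraries that differed between 5.39 and 0.0453 CPM. Eif4ebp1 rose in both, from 1.72 to 3.37 CPM to 25.2 to 56.2 CPM (log2 fold change 3.66 ± 0.53 and 3.73 ± 0.41). Both calls were lost without either late library of their comparison, at 3.10 and 4.04 with lactate and at 3.66 and 3.86 without it. Eif2s3y was at 0 in 3 of 4 early libraries and 0.883 CPM in the other, and without lactate it was at least 248-fold higher in late embryos against a floor of 3 counts per library. Eif4ebp2, another inhibitor of eIF4E, stayed between 1.45 and 13.6 CPM over these libraries and was not called.

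Eif1b fell in both comparisons, from 598 and 465 CPM in early G&N to 105 and 72.9 in late G&N, and from 523 and 404 to 98.4 and 103 without lactate. Its log2 fold changes were -2.64 ± 0.30 and -2.26 ± 0.18, the first lost without either late G&N library, at -2.95 and -2.41. Eif4a1, the main eIF4A helicase, fell from 324 and 199 CPM to 77.0 and 97.6 with lactate and from 199 and 185 to 65.7 and 66.6 without it. Eef1e1 fell in both comparisons, from between 227 and 426 CPM to between 52.2 and 90.1 (-1.94 ± 0.32 with lactate and -2.34 ± 0.29 without it). Eif2b3, of eIF2B, also fell in both, from between 89.2 and 134 CPM to between 4.99 and 43.6 (-2.03 ± 0.45 and -3.22 ± 0.69). Eif4a2 fell in the comparison without lactate, from 290.3 and 258 CPM to 136 and 102, and had 362 and 293 CPM against 131 and 196 with lactate. The ratio of Eif4a2 to Eif4a1 was 1.12 to 1.48 in early libraries and 1.53 to 2.88 in late ones. With lactate, Eif4a1, Eef1e1 and Eif2b3 lost their calls without either late G&N library. Over the 9 alternative settings and left-out libraries, these calls were kept in 6, 7 and 3 in that order. Without lactate, Eif4a1 and Eef1e1 lost theirs without late G&N-L replicate 1, Eif2b3 without 3 of the 4 libraries and Eif4a2 without any 1. Eef1akmt1, another methyltransferase of eEF1A, had 2.24 and 0.91 CPM in early G&N and 28.8 and 37.0 in late G&N (4.35 ± 0.60), a call lost without either late library.

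**Figure D4:**
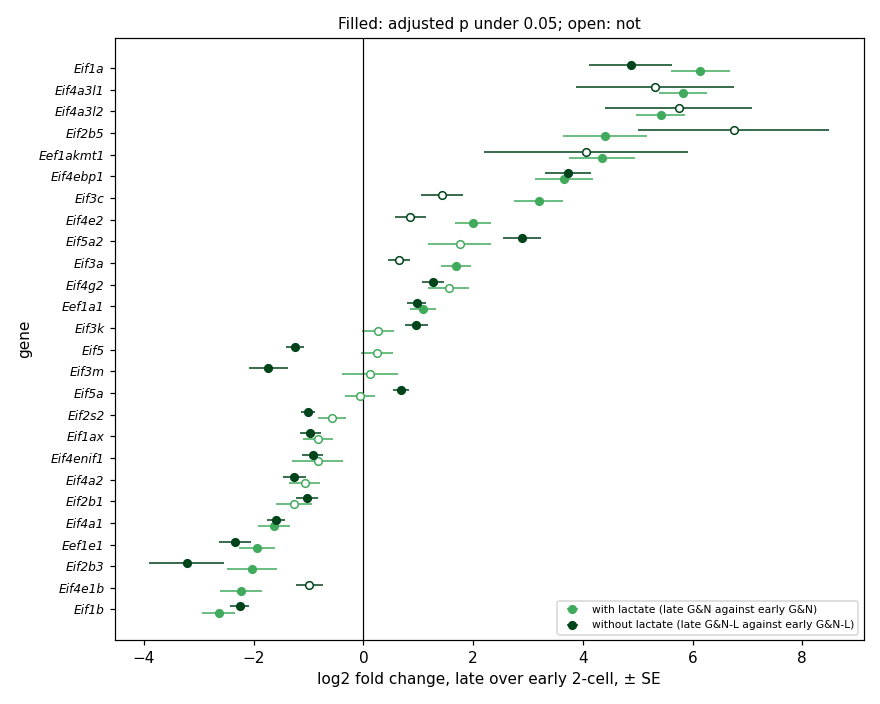
Log2 fold change ± SE (horizontal axis) between late and early 2-cell embryos with (light) and without lactate (dark), for the members (vertical axis) called in either comparison, with Eif2s3y left out because it was at 0 in early G&N-L. Filled points passed an adjusted p under 0.05; Eif1a is at 6.14 and 4.87 and Eif1b at -2.64 and -2.26, and Eif5 and Eif3m are below 0 in the dark points alone.

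Some members passed in edgeR in a single stage comparison. Eif3a, Eif3c and Eif4e2 rose with lactate (1.69 ± 0.27, 3.19 ± 0.45 and 1.99 ± 0.33) and did not pass without it in edgeR (0.65, 1.43 and 0.85), although all 3 passed there in DESeq2 (adjusted p = 0.0178, 0.00524 and 0.0242). Eif5, Eif3m and Eif2s2 fell without lactate (-1.25 ± 0.16, -1.73 ± 0.35 and -1.01 ± 0.13) and did not pass with it in either tool (0.25, 0.12 and -0.57). The difference itself is the interaction above, where Eif3a, Eif3c, Eif3m, Eif4e2 and Eif5 had an unadjusted p under 0.05 and Eif2s2 did not. Each of these 6 stage calls was lost without either late library of its comparison, with log2 fold changes that kept their sign. Of the 9 alternative settings and left-out libraries, 4 kept the call of Eif3m, 6 that of Eif2s2 and 7 each of the others.

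In the elongation group, Eef1a1, the general eEF1A gene, rose in both comparisons, from 197 and 149 CPM to 404 and 367 with lactate and from 166 and 131 to 306 and 298 without it. Its log2 fold changes were 1.09 ± 0.24 and 0.97 ± 0.17, and both calls were lost without any 1 of the 4 libraries of their comparison. Processed copies of Eef1a1 are spread through the genome, so reads may be assigned to them or from them. Eef2 was not called, with 10.04 to 23.6 CPM early and 10.1 to 26.7 late. Eif5a rose without lactate, from 405 and 346 CPM to 659.7 and 599, and Eif5a2 from 10.5 and 8.71 to 91.9 and 56.1. The calls of Eif5a were lost without any 1 library, and that of Eif5a2 without late G&N-L replicate 1 (2.50). Eif4g2, an eIF4G relative that lacks the eIF4E site, rose from 277 and 190.1 to 549.7 and 612 CPM without lactate, a call lost without 3 of the 4 libraries, and had 192 and 280.2 against 880.3 and 599 with it.

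Eif4e1b encodes the eIF4E form of the oocyte, studied for its part in the repression of maternal mRNAs. It lies on chromosome 13 (54931811 to 54936272, plus strand). It had 130.05 and 77.4 CPM in early G&N, 63.8 and 67.1 in early G&N-L, 27.4 and 18.1 in late G&N, 29.2 and 39.99 in late G&N-L, 8.08 and 10.3 with Lac-CoA, 10.2 and 18.5 in H3K18R and 5.92 and 4.04 in WT. Early libraries therefore lay above all late ones. With lactate it fell by 2.24 ± 0.38 on the log2 scale (edgeR adjusted p = 0.0234), a call lost without early G&N replicate 1 (-1.82) and without either late G&N library. Without lactate its log2 fold change of -0.98 ± 0.25 did not pass (edgeR adjusted p = 0.0671), although DESeq2 gave an adjusted p of 0.00979.

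**Figure D5:**
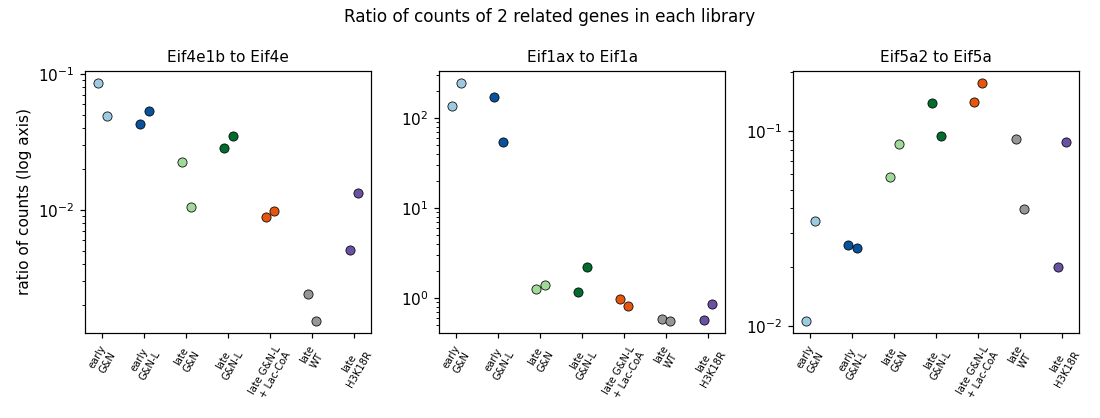
Ratio of counts (log axis) of Eif4e1b to Eif4e, Eif1ax to Eif1a and Eif5a2 to Eif5a in each library (points) of the groups on the horizontal axis. Eif4e1b to Eif4e runs from 0.0866 in early G&N replicate 1 to 0.00152 in WT replicate 2, and Eif1ax to Eif1a separates early from late libraries.

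The general form Eif4e stayed far above it, at 1248 to 1578 CPM in early libraries, 909.9 to 1710 in the late Gne140 groups, 1988 and 1386 in H3K18R and 2444 and 2656 in WT. The ratio of Eif4e1b to Eif4e was 0.0433 to 0.0866 in early libraries, 0.0288 and 0.0353 in late G&N-L, 0.0224 and 0.0106 in late G&N, 0.00888 and 0.00984 with Lac-CoA, 0.00511 and 0.0134 in H3K18R, and 0.00242 and 0.00152 in WT. The 2 canonical transcripts share no window of 100 bases (0%), and shorter shared stretches and other copies were not searched. The summed maternal transcripts given above also differ between these groups, and their part in the levels of Eif4e1b was not tested.

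Near-identical copies limit some values. Eif3j2 shares 84% of its 100-base windows with Eif3j1, and Eif3j1 35.9% with Eif3j2, so these genes are uncertain as separate measurements, and both were called lower without lactate (-0.77 ± 0.29 and -0.72 ± 0.24). Eif4a3l1 and Eif4a3l2 share 23.5 and 27.5% of their windows, and how far they are separate measurements was not tested. Both are counted among the members called higher in each Lac-CoA comparison and among those that rose with lactate. Whether counting used strand is not given in the sources used here, so reads from overlapping genes on opposite strands cannot be told apart.

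Among 61 other genes of the pathway, listed by function, the same call rules were applied. Without lactate at the late stage, 8 of 55 tested were called lower and 3 higher, with 7.63 and 4.23% of all genes. They included Pabpc1, the main poly(A)-binding protein (-1.89 ± 0.28), Denr, which recycles ribosomal subunits (-1.10 ± 0.23), and the eIF2 phosphatase subunits Ppp1r15a (-1.38 ± 0.49) and Ppp1r15b (-1.07 ± 0.33) on the lower side. Dazl, a germ cell RNA-binding protein (0.66 ± 0.26), Paip1 and Hbs1l were higher. With Lac-CoA against G&N-L, 8 of 58 were called higher and 4 lower, with 6.89 and 6.29% of all genes, and Pabpc1 (1.60 ± 0.24), Denr (1.21 ± 0.21) and Ppp1r15b (1.28 ± 0.27) were among the higher. In early embryos 0 of 56 were called, with 0 at an unadjusted p under 0.05. H3K18R had 2 lower and 3 higher of 58, with 2.67 and 3.77% of all genes. Lac-CoA against late G&N had 2 lower and 4 higher of 59, with 4.1 and 4.41% of all genes. Between stages, 7 rose and 6 fell of 58 with lactate, with 8.18 and 5.47% of all genes, and 6 rose and 7 fell of 55 without it, with 5.97 and 5.87%. Pabpc1 and Denr rose in both, by 5.74 ± 0.50 and 2.80 ± 0.28 on the log2 scale with lactate, and Dazl fell by 3.15 ± 0.24 on that scale with lactate.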

How the data were processed

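Per the labels, the authors used FastQC, Trim Galore, HISAT2, featureCounts and DESeq2 with the build mm39, in versions not given in the sources used here. The deposited values are counts of reads per gene, not normalized. Genes past edgeR's default filter were scaled by TMM and tested with the quasi-likelihood functions of edgeR 4.0.16 (limma 3.58.1, R 4.3.3), two-sided, and p-values were adjusted over all genes tested by the method of Benjamini and Hochberg. A comparison used only the 4 libraries of its groups, and the interaction 8. Treatment calls needed a log2 fold change of more than 0.5 in size with p below 0.05 before adjustment. Stage calls needed an adjusted p under 0.05. With 2 libraries a group, exact permutation of a single value has a smallest two-sided p of 0.333, so none is reported. Fitted log2 fold changes use a prior count of 0.125, and SE is the size of the log2 fold change over the square root of F. Levels of members are CPM on TMM-scaled library sizes of all 14 libraries. Marker sums and the limits at 0 counts are CPM on library totals without TMM.

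Named genes were a list of 22 members plus, in each comparison, up to 10 called members with the smallest p. Other called members were named after their values were seen. The members, lists and tests were chosen with earlier results of these data known. Alternatives were DESeq2 1.42.0, its size factors in edgeR, no filter, a single fit of all 14 libraries, a block for replicate number, and each library left out, where the lone library is assumed to vary like the other group. Libraries of a group were not duplicates: their counts differed by 47.8 to 195 times the sampling variance. Amplified reads are not independent molecules, so limits at 0 counts cover counting error only. Promoters were read from GRCm39 with GENCODE M39.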

Additional observations from a re-analysis of the deposited data

Results flagged for a closer look

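The change of Eif5 without lactate differed between the stages by the interaction term, at -1.55 on the log2 scale (SE 0.33, edgeR adjusted p = 0.536, DESeq2 adjusted p = 0.0039). It passed the adjusted threshold in DESeq2 and not in edgeR, and it ranged from -1.75 to -1.31 over the alternatives. Both late G&N-L libraries (269 and 235 CPM) lay below both late G&N libraries (681 and 932), while the early libraries overlapped. The longer time without lactate in late embryos cannot be told apart from stage.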

How the results depend on the processing

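The number of members called stayed within 1.5 times the main number under every alternative for late lactate (15 to 22 against 19) and for Lac-CoA against G&N-L (12 to 19 against 18). Others moved further. For early lactate, 4 became 7 with no filter or with all 14 libraries in one fit, and 0 with the replicate block. For H3K18R, 5 became 3 with the replicate block. For Lac-CoA against G&N, 7 became 12 in DESeq2. For the stage with lactate, 16 became 31 in DESeq2 and 25 with no filter. For the stage without lactate, 19 became 34 in DESeq2 and 12 with the replicate block. Leaving out 1 library gave 2 to 8 for early lactate, 0 to 22 for H3K18R, 5 to 9 for Lac-CoA against G&N, 12 to 18 for Lac-CoA against G&N-L, 15 to 17 for late lactate, 3 to 17 for the stage with lactate, 2 to 13 for the stage without lactate and 5 to 13 for the interaction. The median log2 fold change of the members between stages without lactate, 0.11, reversed to -0.036 without late G&N-L replicate 1 and reached 0.238 without late G&N-L replicate 2. That of Lac-CoA against G&N changed sign from -0.06 to 0.06 without late G&N replicate 2. That of early lactate went from -0.14 to 0.009 without early G&N replicate 1. Eif1 without lactate at the late stage, -0.13, reversed to 0.0373 without late G&N replicate 2 and was -0.207 without late G&N replicate 1, and Eif3m with Lac-CoA against G&N, at -0.01, reversed to 0.0707 with the replicate block, 0.583 without late G&N replicate 2 and 0.118 without Lac-CoA replicate 2, and was -0.468 without late G&N replicate 1. The causes were not tested. With DESeq2's size factors the median of all genes between stages with lactate went from 0.08 to 0.19. Replicate numbers are shared by the groups but nothing says that they pair the libraries, and the correlation of deviations of same-numbered libraries was -0.0478 to 0.00815. Adding 1 count moved the ratios of related genes by less than their spread between libraries. Groups of 2 libraries limit the precision.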
